A study of Rattus norvegicus with 1 sample.

Results

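The segment of rat chromosome 8 from 54 to 67 Mb (rn4, positions 54000001 to 67000000) lies inside the chromosome and held few sequenced tags for the share of them that were repeated. Its members were the 1300 non-overlapping bins of 10 kb between these limits, out of 255799 bins on the 20 autosomes and 279442 over all sequences of the library. The limits were chosen by measured values of this same library, namely the number of distinct tags in 1 Mb bins set against the share of repeated tags there. Density, repeated share and their ratio are therefore given as descriptions. The library was input DNA of PCCl3, a differentiated rat thyroid cell line grown with thyrotropin and other hormones. By the protocols given with the library, cells were fixed with formaldehyde and sonicated, and DNA taken without any antibody was size-selected on a gel, amplified and sequenced. The labels call this library input DNA. Its number of aligned tags, given below, equals that reported by the study for its control. The study's methods name non-immunoprecipitated DNA as the sequenced control. They describe input taken before sonication as a separate sample, used for normalization. Only 1 library, without replicates, was analysed here. It held 6714002 aligned tags of 50 bp at 5985139 distinct positions and strands. No test between groups was possible, no p-value was computed, and intervals are exact at the 95% level (Poisson for counts, Clopper-Pearson for shares). They cover counting error only, since amplified reads without molecular identifiers are not independent molecules.

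A control of this kind shows how many fragments of each place entered sequencing when no protein was selected. Peak callers compare immunoprecipitated DNA with it, so a place where the control is sparse or dense changes the background against which a binding site is called. Tags that share a position and strand may be amplified copies of a fragment, and a fragment read from either end leaves a plus-strand tag and a minus-strand tag about a fragment length apart. Genes, base composition and assembly gaps of the segment in rn4 were not analysed here.

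The segment was sparse compared with both sides of it. It held 19838 distinct tags, counted as 1 per 5′ end and strand (Poisson 95% interval 19563 to 20116). This was 6.82% of the distinct tags of chromosome 8 in 10.1% of its length. The density was 1.526 distinct tags per kb (1.505 to 1.547). In the left flank, from 34 to 54 Mb, it was 2.23 per kb (2.20 to 2.25), and in the right flank, from 67 to 87 Mb, it was 2.57 per kb (2.55 to 2.59). The segment thus held 0.686 times the density of the left flank (0.674 to 0.697) and 0.594 times that of the right flank (0.585 to 0.604). The median 10 kb bin held 14 distinct tags in the segment, 19 in the left flank and 23 in the right flank, against 18 over all autosomal bins. Against both flanks together, the ratio of medians was 0.651.

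The 13 windows held between 939 and 2366 distinct tags with a median of 1498. The lowest was the window from 56 to 57 Mb with 939 tags (880 to 1001), and the highest was that from 66 to 67 Mb with 2366 (2272 to 2463). From 54 Mb on, the counts were 1438 and 1171, then the minimum, and then 1143, 1553, 1273, 1502, 1914, 1807, 1151, 1498, 2083 and the maximum. Density therefore fell toward 56 Mb and was higher in the distal part, with a local low from 63 to 64 Mb. On the log2 scale the SD of these counts was 0.39, against 0.88 for the 20 windows of the left flank and 0.49 for the 20 windows of the right flank, a spread that the choice of low windows itself narrows.

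The counts of the segment were not in themselves rare on this chromosome. In the left flank 4 windows held fewer tags than any window of the segment, the lowest with 728, and 7 fell within the range of the segment. In the right flank no window lay below that range and 8 fell within it. Immediately before the segment the windows held 2408, 1819 and 1531 tags in order of position. Immediately after it they held 3616, 4119 and 2851.

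The segment was chosen for low density together with a high share of repeated tags. Of its 22424 tags, 2586 were repeated, or 11.53% (Clopper-Pearson 95% interval 11.12% to 11.96%). The share was 10.5% in the left flank (10.2% to 10.7%), 9.70% in the right flank (9.45% to 9.94%) and 10.8% over all autosomal bins. Window by window it ran from 7.94% at 56 to 57 Mb to 13.83% at 60 to 61 Mb. The 7 left flank windows with counts in the range of the segment had a median share of 7.83%, and the 8 of the right flank had a median share of 7.45%. Within the segment the share rose with density as it did elsewhere. Spearman rho was 0.85 over the 13 windows and 0.83 over 2516 autosomal windows outside it (Pearson r 0.82 and 0.83). These points are windows of the same library and are not independent replicates.

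The repeated share was also described in 10 kb bins of like density. In bins with 10 to 19 distinct tags, 9.58% of tags were repeated in the segment (8.97% to 10.2%), 6.57% in the left flank (6.05% to 7.13%) and 6.40% in the right flank (5.90% to 6.93%). In bins with 20 to 29 distinct tags the shares were 12.3%, 8.61% and 7.69%, and in bins with 30 or more they were 16.0%, 12.7% and 11.5%. These values restate what the segment was chosen by, in smaller bins. In bins with 1 to 9 tags the share of 7.30% (6.22% to 8.50%) overlapped both flanks, at 5.73% (4.71% to 6.89%) and 6.98% (5.55% to 8.65%). Repetition was shallow in all of them. In the segment 88.8% of occupied positions had 1 tag, 9.69% had 2 and 1.35% had 3, and the highest number at a position was 6, as it was in both flanks.

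**Figure D1:**
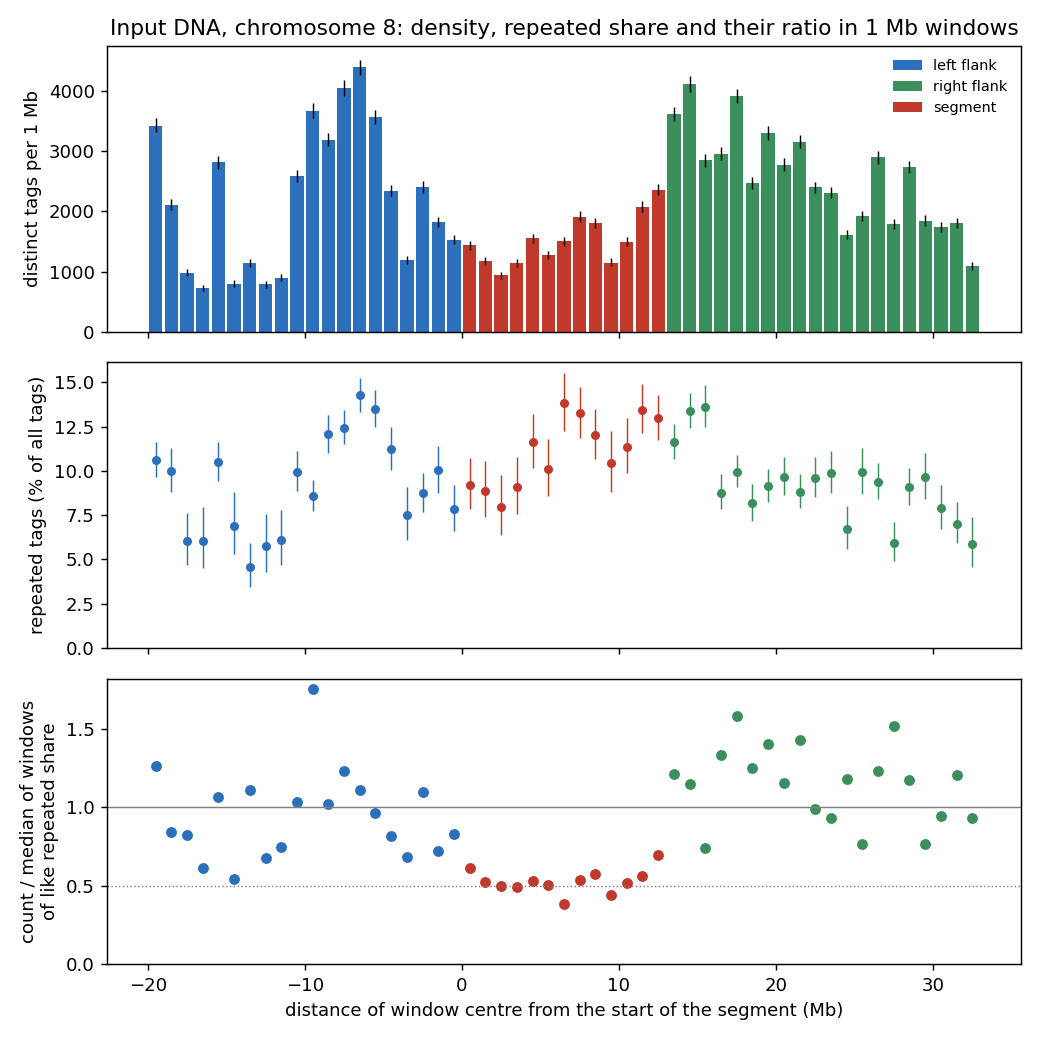
Upper panel, distinct tags per 1 Mb window with Poisson 95% intervals; middle panel, repeated tags as a percent of all tags with Clopper-Pearson 95% intervals; lower panel, the count divided by the median count of autosomal windows of like repeated share, with lines at 1 (solid) and 0.5 (dotted). The x axis is the distance of the window centre from the start of the segment in Mb, and the 13 windows of the segment lie between 0.384 and 0.698 in the lower panel.

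Each 1 Mb window was then set beside all autosomal windows outside the segment whose repeated share lay within 0.5 percentage points of its own, between 110 and 269 windows for each. The 13 windows of the segment together held 0.530 times the count of these windows. Their own ratios ran from 0.384 to 0.698, with a median of 0.524 and 10 of 13 between 0.4 and 0.6. The lowest ratio was from 60 to 61 Mb, where 20 of the 100 bins were empty (6.04% of all autosomal bins were), and the highest was from 66 to 67 Mb, which the right edge described below divides. All 13 windows lay below the lower quartile of their matched windows, and between 0.909% and 12.6% of the matched windows were lower. A ratio under 0.75 was found in 13 of 13 windows of the segment, 6 of 20 of the left flank, 1 of 20 of the right flank and 16.6% of all autosomal windows. Since this ratio chose the segment, nothing is read from these counts. The run of 13 consecutive windows under 0.75 ended exactly at 54 and 67 Mb. On the autosomes 4 runs were at least that long, with the others on chromosome 15 and chromosome 18, out of 232 runs in all.

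The comparison was also turned around. Among autosomal windows within 10% of the same density, between 223 and 325 for each window of the segment, the median repeated share was typically 6.76%, against 11.4% for the median window of the segment. All 13 windows lay above the upper quartile of their matches, and between 91.5% and 99.3% of the matches had a lower share. This is the contrast that chose the segment, seen from its other side, so nothing is read from these counts.

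**Figure D2:**
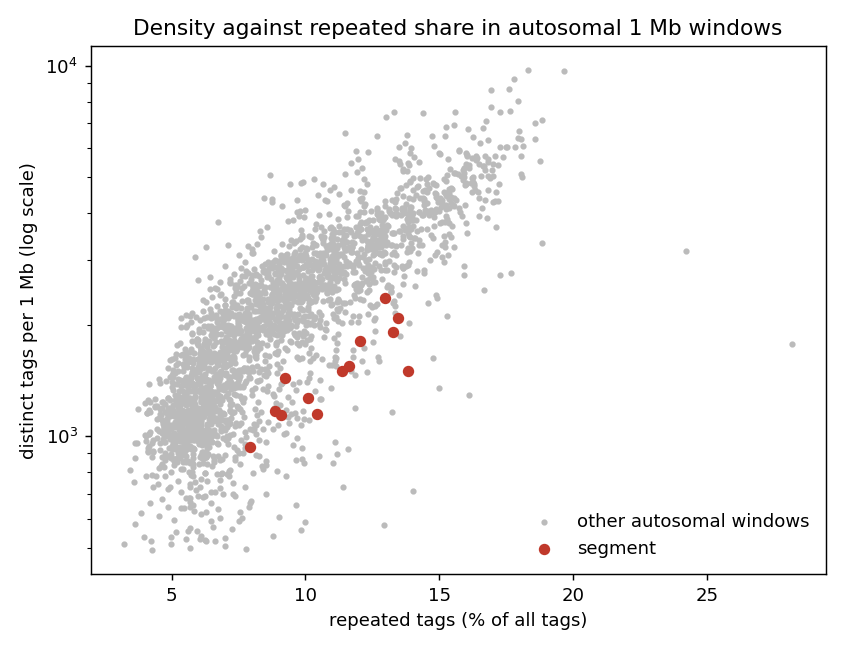
Distinct tags per 1 Mb window on a log scale against the repeated tags as a percent of all tags. Each grey point is an autosomal window outside the segment and each red point is 1 of the 13 windows of the segment, which run parallel to the grey cloud and below most of it, from 939 tags at 7.94% to 2366 tags at 12.98%.

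The right edge was placed within a narrow range in all settings but the log2 scale. A single step fitted to the square root of the 10 kb counts within 5 Mb of 67 Mb fell at 66.81 Mb, with a range of 66.78 to 66.82 Mb for positions that fitted nearly as well. The mean rose from 16.8 to 35.2 distinct tags per bin, or 2.09 times. Plus-strand tags alone (range 66.77 to 66.82) and minus-strand tags alone (66.63 to 66.82) both placed it at 66.81 Mb. Counting all tags gave the same place with a range of 66.63 to 66.82 Mb. Bins of 1 kb placed it at 66.816 Mb (66.811 to 66.818). The 10 bins before it held 22, 13, 9, 12, 19, 9, 18, 23, 8 and 19 distinct tags. The 10 bins after it held 34, 90, 35, 33, 59, 21, 29, 38, 26 and 43. The bins on both sides overlapped only where 21 on the right lay below the 23 and 22 of the left. In 500 kb on either side there were 934 and 1886 distinct tags, a ratio of 2.02 (1.87 to 2.19). The repeated share was 13.4% before the edge (11.4% to 15.5%) and 12.4% after it (11.1% to 13.9%), with overlapping intervals. Since the edge was placed by these counts, their ratio describes the fit. The excess of opposite-strand pairs over background, defined below, was 190 per 1000 plus-strand tags before the edge (143 to 243) and 357 after it (308 to 410).

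The stretch from 66.81 to 67 Mb, inside the segment as defined, therefore lay on the dense side of this edge and was denser than the mean of the right flank. The 100 kb windows from 66.8 and 66.9 Mb held 384 and 449 distinct tags, the highest of the 130 in the segment, against 169 in the window from 66.7 Mb and 297 and 309 in the first windows past 67 Mb. The 10 kb bin just inside the limit at 67 Mb held 44 tags and the bin just outside held 35. A smaller step lay further inside, at 65.39 Mb (65.38 to 65.40), where the mean rose from 14.1 to 23.6 tags per bin and the repeated share from 11.1% to 13.4%. The later part includes the dense stretch past 66.81 Mb, and without it the mean after the step was 20.99 tags per bin. On the log2 scale this was the place to which the right edge moved, with a range of 65.38 to 66.82 Mb.

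The place of the left edge depended on the setting. The same fit within 5 Mb of 54 Mb was placed at 54.65 Mb, with a range of 54.24 to 54.84 Mb, and the mean fell from 18.4 to 11.8 distinct tags per bin, or 0.644 times. In 500 kb on either side of it there were 805 and 537 distinct tags, a ratio of 0.667 (0.597 to 0.745). As at the right edge, these counts placed the edge, so their ratio describes the fit. The 10 bins before the edge held 3 to 33 tags and the 10 bins after it held 8 to 17, so the groups overlapped. The excess of opposite-strand pairs, defined below, was 170 per 1000 plus-strand tags in the 500 kb before it (122 to 225) and 15.3 in the 500 kb after it (-20.1 to 62.7). Over 1000 kb it was 129 before (95.5 to 167) and 79.8 after (47.1 to 118), with overlapping intervals. In 100 kb on either side the ratio of 0.787 (0.613 to 1.01) did not differ from 1 beyond counting error. The position moved between 50.41 and 54.65 Mb with the scale and the search range. From 49 Mb on, the 1 Mb windows held 2348, 1197, 2408, 1819, 1531, 1438 and 1171 tags with no steady course. Over occupied bins the step fell at 52.18 Mb (52.11 to 52.19), a far narrower range than around 54.65 Mb, and the mean fell from 24.4 to 13.4 tags, or 0.549 times. In a search within 2 Mb it fell at 52.2 Mb, the first place that the minimum of 20 bins on each side allowed, so that its range has no meaning. The 10 kb bin just inside the limit at 54 Mb held 20 tags and the bin just outside held 8, and the 100 kb windows there held 180 and 149.

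When 100 kb counts were divided by those of autosomal windows of like repeated share, the left step fell at 53.6 Mb (53.5 to 53.9). There the ratio fell from 0.898 to 0.543. Density itself did not differ beyond counting error at this place, with 794 distinct tags in the 500 kb before it and 776 in the 500 kb after it, a ratio of 0.977 (0.884 to 1.08). The repeated share was 5.92% before it (4.43% to 7.74%) and 10.8% after it (8.82% to 13.1%). The share helped to place the step, so this difference describes the fit. In 100 kb on either side the shares were 8.57% (4.51% to 14.5%) and 5.81% (2.69% to 10.7%), with overlapping intervals and the opposite order. The repeated share used for this adjustment was taken over 500 kb, so the place of the step is no finer than that. On the adjusted scale the right step fell at 66.8 Mb, from 0.535 to 1.11.

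**Figure D3:**
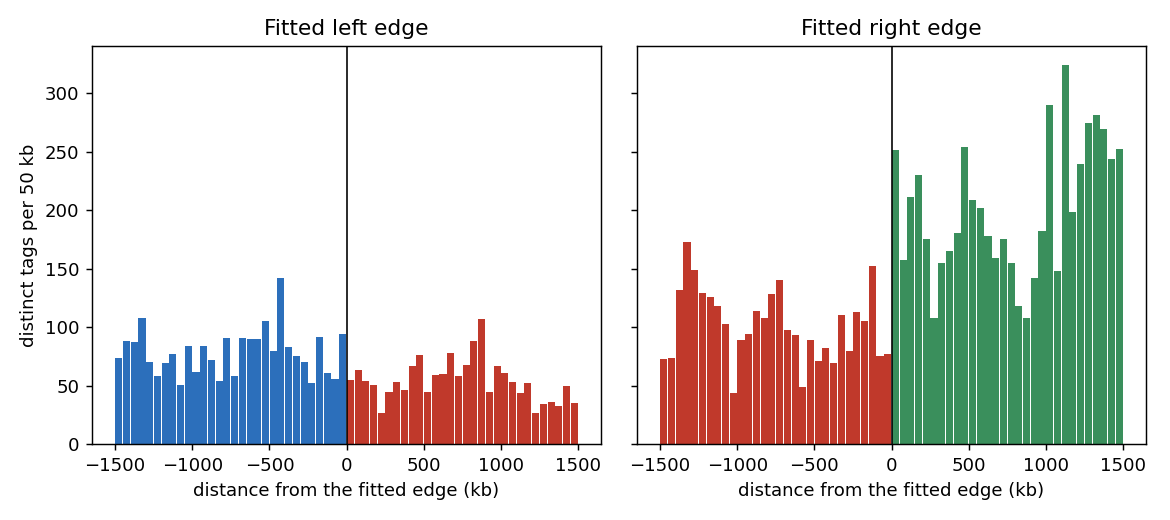
Distinct tags per 50 kb against the distance in kb from the fitted left edge (54.65 Mb) and the fitted right edge (66.81 Mb). Red bars lie inside the fitted edges and blue or green bars outside them; at the right edge the neighbouring bars rise steeply, although bars farther out on both sides overlap there as they do at the left edge.

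Inside the segment the bins were uneven, and its order relative to the flanks depended on the measure. Occupied 10 kb bins had a variance-to-mean ratio of 5.68, where Poisson counting gives 1, against 11.2 in the left flank and 8.33 in the right flank. This ratio rises with the mean, so the counting variance was also subtracted and the remaining SD divided by the mean. It was 0.539 in the segment, 0.652 in the left flank, 0.525 in the right flank and 0.770 over the autosomes. No interval was computed for these values, and those of the segment and the right flank were close. The central 90% of bins of the segment held 0 to 33 tags, and the fullest held 90. That bin was the second past the fitted right edge. At least 2 times the autosomal median was held by 3.69% of bins of the segment, 18.8% of the left flank, 23.0% of the right flank and 18.2% of all autosomal bins. Bins at or under 0.5 of the autosomal median, that is 9 tags, made up 28.9% of the segment (26.5% to 31.5%), 23.2% of the left flank (21.4% to 25.1%), 11.6% of the right flank (10.2% to 13.1%) and 23.5% of all autosomal bins. Both cuts are set on density, by which the segment was chosen, and nothing is read from these shares. Within single 1 Mb windows this coefficient of variation beyond counting had a median of 0.429 in the segment and 0.416 in windows of like repeated share (quartiles 0.358 and 0.506), and 6 of 13 windows lay above the matched median.

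**Figure D4:**
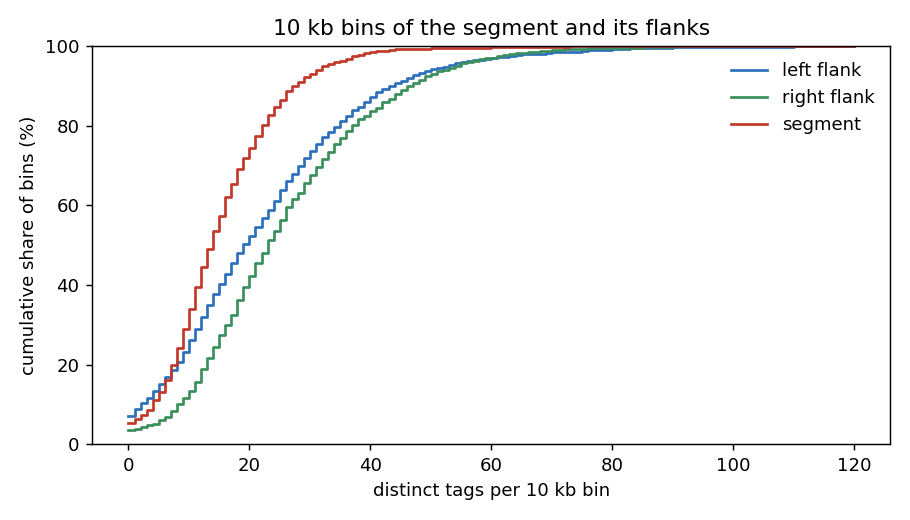
Cumulative share of 10 kb bins, in percent, against the number of distinct tags per bin for the 1300 bins of the segment and the 2000 bins of each flank. The curve of the segment begins between those of the flanks, at 5.23% of bins without tags, and then rises above both, since only 3.69% of its bins held at least 36 tags.

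The share of bins without tags lay between those of the flanks. The segment had 68 of them, or 5.23% (4.08% to 6.58%), against the left flank with 141, or 7.05% (5.97% to 8.26%), and the right flank with 71, or 3.55% (2.78% to 4.46%), and its interval overlapped both. Over all autosomal bins the share was 6.04%. They were clustered. Of the 68 bins, 55 lay in 8 runs of 3 or more, and 7 stood alone. In the left flank 110 of 141 lay in such runs, the longest of 33 bins. The right flank had 35 of 71 in them, the longest of 14 bins. In the segment the longest run was 12 bins from 60100001 to 60220000, followed by 11 bins from 63790001 to 63900000 and 11 bins from 64820001 to 64930000. By tags, the widest stretches of the segment without any were 128243 bp from 60096969 to 60225211, 122028 bp from 64813384 to 64935411 and 120283 bp from 63781116 to 63901398. At 15.3 tags per bin on average, Poisson counting alone would leave fewer than 1 empty bin among 1300. The 2 windows of 100 kb with no tag began at 60.1 and 63.8 Mb, where a count of 0 allows up to 3 tags, and the next lowest, from 60.2 Mb, held 6. In windows of 1 Mb the median was 2 empty bins of 100, against 3 in windows of like repeated share. Over occupied bins alone the ratio of medians to the flanks was 0.609.

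At the scale of 1 kb, 35.3% of the 13000 windows held no tag, against 29.8% in the left flank and 22.2% in the right flank, and 30.3% over all autosomal windows. Poisson counting at the mean density of each gives 21.7%, 10.8% and 7.67%. A single window of the segment reached 10 times the autosomal mean of occupied windows, that is 33 or more distinct tags, or 0.00769% of its windows, against 2 (0.01%) in the left flank, 6 (0.03%) in the right flank and 0.0366% of all autosomal windows. The window of the segment ran from 66961001 to 66962000, past the fitted right edge, with 33 distinct tags (22.7 to 46.3), 21 on plus and 12 on minus, and 37.7% of its 53 tags were repeated. The next were from 60887001 to 60888000 and from 66826001 to 66827000, with 20 distinct tags each (12.2 to 30.9).

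Both strands were about equally represented. The plus strand held 50.5% of the distinct tags of the segment (49.8% to 51.2%), 50.6% in the left flank and 49.8% in the right flank. Single windows ran from 47.8% to 54.5%. The highest, from 56 to 57 Mb, was the window with the fewest tags, and its interval (51.3% to 57.7%) did not include 50%. It was picked out of 13 after the values were seen.

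Strand pairing inside the segment had the same position as outside it. Pairs of a plus-strand 5′ end and a minus-strand 5′ end downstream were most frequent at a shift of 168 bp in the segment, 165 bp in the left flank and 166 bp in the right flank, after smoothing over 21 bp. At shifts of 120 to 220 bp the segment held 3149 pairs where the level at shifts of 400 to 600 bp gave 1221, a ratio of 2.58 (2.49 to 2.67). The ratio was 2.09 in the left flank (2.05 to 2.14) and 1.93 in the right flank (1.90 to 1.97). The background of this ratio falls with density, so the excess was also counted per tag. It was 192 pairs per 1000 plus-strand tags in the segment (182 to 204), 218 in the left flank (209 to 226) and 203 in the right flank (195 to 211). The intervals of the segment and the right flank overlapped, and those of the segment and the left flank did not. The relative peak was thus higher in the segment, while the excess of pairs per tag was like that of the right flank. A tag can enter several pairs, so this is not the share of tags with a partner, given below.

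Pairing varied with position in the segment. The excess was lowest from 56 to 57 Mb, at 25.1 per 1000, and highest from 66 to 67 Mb, at 299. All 13 windows lay below the median of autosomal windows of like repeated share, with a median of 161 against 245 (quartiles 209 and 286). All 13 also lay above the median of windows of like density, whose typical value was 61.3. The ratio of pairs to their background had the other order against windows of like repeated share. Its median was 2.55 in the segment against 2.09 in those windows (quartiles 1.95 and 2.24). For this ratio 11 of 13 windows lay above the matched median. By the choice of the segment, windows of like repeated share were denser than it, and windows of like density had lower repeated shares. Among windows of like density, the median excess was higher where density was higher. The background of the pair ratio falls with density. These orders can therefore follow from the choice of the segment, and nothing is read from these counts.

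Positions with copies had partners more often. In the segment 35.3% of plus-strand positions with 2 or more tags had a minus-strand tag at 120 to 220 bp (32.6% to 38.2%), against 11.9% at a stretch of equal width from 400 bp. Positions with 1 tag had one in 21.4% (20.5% to 22.3%), against 10.1%. The left flank gave 45.3% and 25.9%, and the right flank gave 45.5% and 25.2%, with backgrounds of 15.7% to 19.3%. Tags on the same strand also lay close together. Pairs 1 to 10 bp apart were 2.42 times as frequent as at 400 to 600 bp in the segment (2.23 to 2.63), 2.28 times in the left flank (2.17 to 2.38) and 2.20 times in the right flank (2.11 to 2.30), with overlapping intervals. At 51 to 100 bp the values were 1.69 (1.61 to 1.77), 1.55 (1.51 to 1.59) and 1.58 (1.55 to 1.62), where the interval of the segment overlapped that of the right flank but not that of the left flank. Over 100 and up to 200 bp they were 1.19, 1.21 and 1.20.

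**Figure D5:**
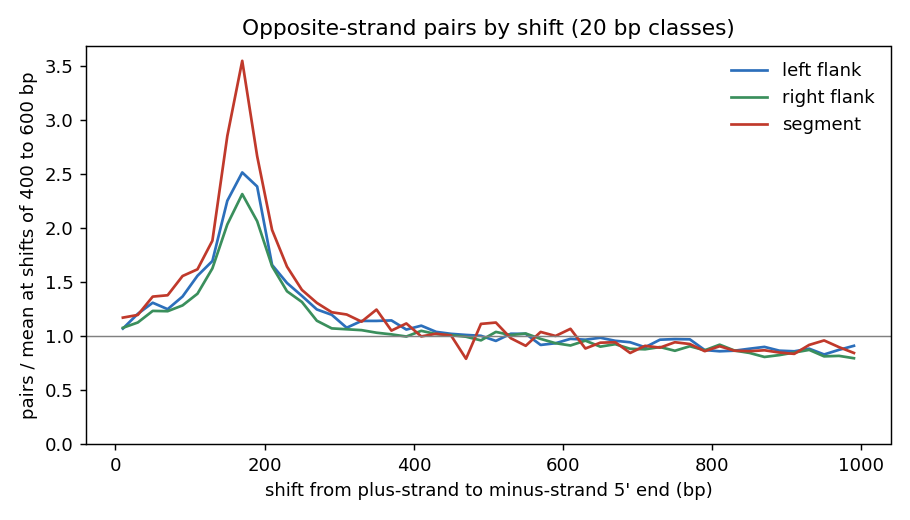
Opposite-strand pairs in classes of 20 bp, divided by the mean at shifts of 400 to 600 bp, against the shift in bp from the plus-strand to the minus-strand 5′ end. Segment and flanks all peak at shifts near 168 bp, and the peak of the segment is the highest relative to its background (3.58, against 2.57 and 2.35 in the flanks after smoothing over 21 bp).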

How the data were processed

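The authors aligned 50 bp reads to the rat genome (rn4) with the MIRO pipeline, allowing 2 mismatches, and deposited the tags as positions and strands without score or normalization. The aligner version, the treatment of reads with several places and the removal of duplicates are not stated in the labels or methods, and repeated positions were present. Each tag was placed at its 5′ end, and tags per bin were counted from the list (Python 3.11.15, NumPy 2.4.6, SciPy 1.17.1). Depth was 22.6 distinct tags per autosomal 10 kb bin on average.

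Edges were least-squares single steps in the square root of 10 kb counts with at least 20 bins on each side. Their ranges assume independent bins. Matched windows under 25% of the autosomal median were left out. The steps, the coefficient of variation, the pairs and the matching were tested on simulated data. Regions were named by rule: 1 Mb windows, edges with the bins beside them, extreme 100 kb windows, longest empty runs and stretches, and fullest 1 kb windows. Members, lists and measures were chosen with earlier results of these data known. Matching on density, density classes, spacing and partner shares were added after the values had been seen. The GRCr8 gene and sequence tables were not used, because the build differs.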

Additional observations from a re-analysis of the deposited data

How the results depend on the processing

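The ratio of the segment to its flanks stayed under 1 in all alternatives run. From 0.651 it became 0.637 with means, 0.7 with 5 kb bins, 0.629 with 20 kb bins, 0.639 with 50 kb bins, 0.609 with occupied bins, 0.5 with flanks of 10 Mb, 0.636 on either strand alone, 0.605 between the fitted edges, 0.737 against the left flank and 0.609 against the right flank. The last 3, the adjusted edges, the 1 kb edge and matching on pairs were chosen after seeing the data. The left edge moved from 54.65 to 50.41 Mb on the log2 scale, with a range of 49.95 to 54.86 Mb that included 54.65 Mb. It moved to 52.18 Mb with Poisson deviance and with occupied bins, and to 52.2 Mb in a search within 2 Mb. After adjustment by repeated share it lay at 53.6 Mb. The right edge moved only on the log2 scale, to 65.39 Mb, with a range of 65.38 to 66.82 Mb that included 66.81 Mb. It stayed inside its main range in the other 10 alternatives. The ratio to matched windows of 0.530 became 0.539 with 500 kb windows and 0.646 with matching on excess pairs. The coefficient of variation of 0.539 became 0.602 with all bins, 0.563 with 5 kb bins, 0.450 with 50 kb bins, 0.597 with all tags and 0.478 without the 1% fullest bins. Empty bins numbered 215 of 5 kb and 25 of 20 kb. The pair excess of 192 became 277 with all tags, 227 at shifts of 100 to 250 bp and 204 with background from 600 to 1000 bp. The cause was not tested for any of these. With 14 tags in the median bin, small differences between neighbouring bins lie within counting error. No paired analysis was possible because only 1 sample was analysed here.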
